A study of Arabidopsis thaliana with 4 samples.

Results

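The plastid-encoded genes are those carried by the chloroplast's own genome, recognised here by plastid locus tags in RefSeq. An Affymetrix ATH1 probe set that names exactly 1 such gene was found for 69 of the 78 differently named protein-coding genes of the plastid genome, with 1 probe set per gene, among 13356 genes with such a probe set on the array; 22746 probe sets were tested in all. Of the others, 7 had a probe set that the annotation assigns to more than 1 plastid gene copy. These were taken as genes of the inverted repeat and are described apart. The genes were grouped by the complex or process their product serves.

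Whole seedlings of Arabidopsis thaliana aged 6 days were compared between wild type and the rsa3-1 mutant, with 2 arrays per genotype that the design text calls biological replicates. Both genotypes are in the Columbia gl1 line, which carries a luciferase transgene driven by the RD29A promoter, and both were kept at 120 mM NaCl for 24 h. All 4 arrays had salt, so the comparison asks how the genotypes differ under salt and not how either responds to it. RSA3 encodes a xyloglucan galactosyltransferase of cell wall synthesis, and rsa3-1 is represented by a single allele. Seedlings grew on agar with sucrose in a long-day light cycle, and neither the hour of sampling nor the number of pooled seedlings is given in the labels.

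Chloroplasts keep a small, bacterial-type genome that encodes core subunits of the photosynthetic complexes, the large subunit of Rubisco, part of the plastid ribosome and the core of a bacterial-type RNA polymerase. Plastid genes are read by that plastid-encoded polymerase and by phage-type polymerase encoded in the nucleus. In plants the rpoB-rpoC1-rpoC2 unit, which encodes the bacterial-type core, and accD are known as targets of the nuclear-encoded polymerase, while most photosynthesis genes depend on the plastid-encoded polymerase. Many plastid genes are transcribed together with their neighbours and cut into smaller RNAs afterwards. Plastid mRNAs mostly lack a stable poly(A) tail, and in plastids a poly(A) tail marks RNA for decay. The labels name the standard Affymetrix labelling protocol but not its primer, so whether total or polyadenylated plastid RNA was labelled cannot be told apart. In whole seedlings, fewer green cells and less plastid RNA per cell cannot be told apart either.

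Over all probe sets, the log2 medians of the arrays ran from 6.46 to 6.51. The median over bacterial and phage spike-in controls was 7.94 in wild type replicate 1 and 7.22 to 7.34 on the other arrays. The difference between 3′ and 5′ actin probe sets, a sign of RNA integrity, was 3.85 and 3.49 in wild type against 3.62 and 3.69 in rsa3-1. For GAPDH it was 1.17 and 1.07 in wild type against 1.25 and 1.08 in rsa3-1. For ubiquitin it was 1.5996 and 1.56 against 1.36 and 1.49. The 3′ signal was thus the higher on every array, most of all for actin. No limit was set for these differences, so they do not show that the RNA was intact. For the tissue label, the measured nuclear genes of photosynthesis stood between 8.00 and 13.48 and the root gene PYK10 between 13.38 and 13.54, so green and root tissue were both present.

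Of the 69 plastid-encoded genes, 2 fell in rsa3-1 and 0 rose (limma, adjusted p under 0.05 over all probe sets), where 1.13% of all probe sets were called and 0.466% were called lower and 0.659% higher. Both genes that fell, rpoC1 and rpoC2, encode subunits of the plastid RNA polymerase and lie next to each other. At an unadjusted p under 0.05, 18 plastid genes were lower and 2 higher, 29.0% of the 69, against 9.68% of all probe sets (5.05% lower and 4.63% higher). The log2 difference, rsa3-1 minus wild type, was below 0 for 55 of the 69, against 52.9% of all probe sets. Its median was -0.13, against -0.01 over all probe sets, and it ran from -0.81 for rpoC1 to 0.42 for psbK. Both rsa3-1 values lay below both wild type values for 34 genes and above them for 4, against 20.9% and 17.8% of all probe sets. The plastid genes were brighter than that background, with log2 medians per array of 10.50 to 11.05 against 6.46 to 6.51. The shares of all probe sets are not matched for level.

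**Figure D1:**
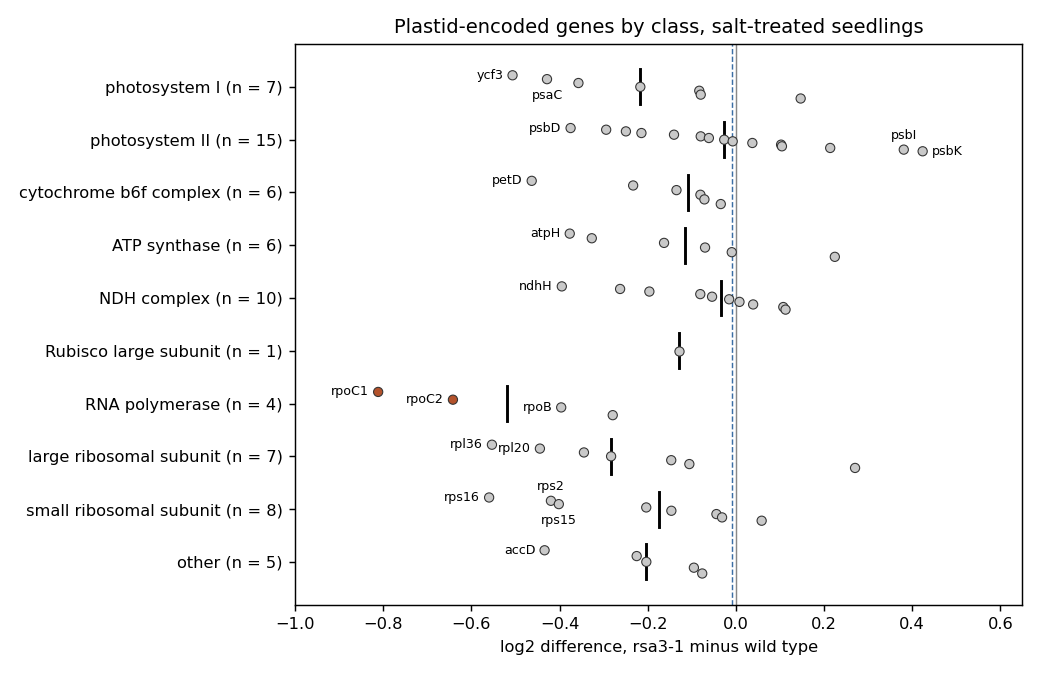
Log2 difference between rsa3-1 and wild type (x axis) for the 69 plastid-encoded genes, each a point, by gene class (y axis); filled red-brown points are called (limma, adjusted p under 0.05), black bars are class medians and the dashed line is the median of all probe sets. The RNA polymerase genes rpoC1 and rpoC2, at -0.81 and -0.64, are the called points, and every class has a median below 0.

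This shift was uneven over the arrays. Wild type replicate 2 had the highest value for 40 of the 69 genes and the lowest for 0, while rsa3-1 replicate 2 had the lowest for 48 and the highest for 4. Taking each gene's deviation from its own mean over the 4 arrays, the median deviation was 0.04 and 0.13 in wild type replicates 1 and 2, and 0.01 and -0.15 in rsa3-1 replicates 1 and 2. The rsa3-1 arrays thus stood about as far from each other as the genotypes did. Between wild type replicate 1 and rsa3-1 replicate 1 the genes were divided, 39 lower and 30 higher in the mutant, with a median difference of -0.02. Between wild type replicate 2 and rsa3-1 replicate 2, 63 were lower and the median was -0.25. The numbers do not mark pairs, and the other 2 comparisons between genotypes lay in between. From wild type replicate 1 to rsa3-1 replicate 2, 54 were lower (median -0.17), and from wild type replicate 2 to rsa3-1 replicate 1, 56 (-0.10). Within wild type, 49 genes were higher in replicate 2 than in replicate 1, and within rsa3-1, 52 were lower in replicate 2. Without rsa3-1 replicate 2 the 69 genes had a median difference of -0.07, with 42 lower in value (60.9% against 49.9% of all probe sets). Without rsa3-1 replicate 1 the median was -0.22, with 56 genes lower in value (81.2% against 55.7%). Without wild type replicate 1 the median was -0.17, with 62 genes lower in value (89.9% against 50.7%). Without wild type replicate 2 the median was -0.09, with 46 genes lower in value (66.7% against 53.8%). The part of array-wide differences in the shared shift was not tested.

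**Figure D2:**
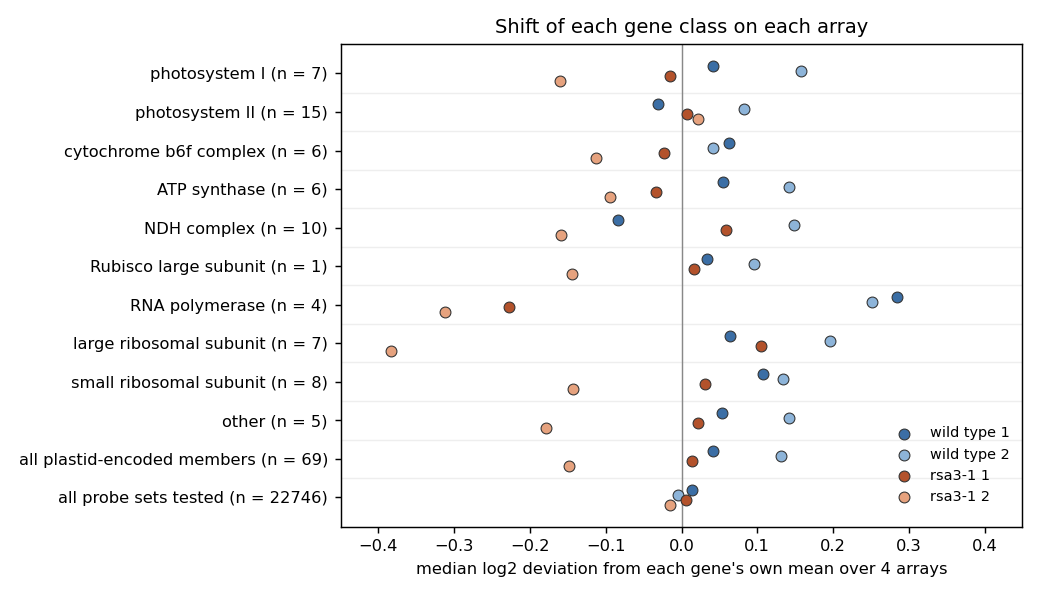
Median log2 deviation from each gene's own mean over 4 arrays (x axis) for each gene class, all 69 plastid-encoded genes and all probe sets (y axis), with 1 point per array. For RNA polymerase genes both wild type arrays stand above 0.2 and both rsa3-1 arrays below -0.2, whereas for the large ribosomal subunit rsa3-1 replicate 1 is at 0.10 and replicate 2 at -0.38.

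Of the 4 RNA polymerase genes, rpoC1 and rpoC2 fell and rpoB and rpoA did not pass. rpoC1 encodes the β′ subunit of the plastid-encoded polymerase. Its log2 values were 10.16 and 10.08 in wild type replicates 1 and 2, and 9.37 and 9.25 in rsa3-1 replicates 1 and 2. The genotypes did not overlap, and the gap between them was several times the distance between arrays of a genotype. The mean was 10.12 ± 0.06 in wild type and 9.31 ± 0.08 in rsa3-1 (SD, n = 2 each), and rpoC1 fell by 0.81 in log2 units (standard error 0.10, limma adjusted p = 0.013). This is 57.0% of the wild type level, with a 95% interval of 48.3% to 67.2%.

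rpoC2 encodes the β′′ subunit. It stood at 8.35 and 8.39 in wild type and at 7.75 and 7.71 in rsa3-1, so the arrays of each genotype lay close together and far from the other genotype. Its mean was 8.37 ± 0.02 in wild type and 7.73 ± 0.03 in rsa3-1 (SD, n = 2 each), so that it fell by 0.64 in log2 units (standard error 0.10, limma adjusted p = 0.028). The level was 64.1% of wild type, with a 95% interval of 54.9% to 74.9%.

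rpoB, which encodes the β subunit and starts the unit, was at 4.26 and 4.13 in wild type against 3.84 and 3.75 in rsa3-1. All 4 values lie under the lower quartile of all values on the arrays, 4.35, and without detection calls they may be background. Its difference of -0.40 did not pass (limma adjusted p = 0.23). rpoA, for the α subunit, lies elsewhere in the genome, at the end of a ribosomal protein cluster. It was at 12.11 and 12.16 in wild type and at 12.004 and 11.71 in rsa3-1, a difference of -0.28 that did not pass (adjusted p = 0.53). The wild type values were again both above the mutant ones, but rsa3-1 replicate 1 lay nearer to wild type than to rsa3-1 replicate 2. Thus the 4 genes were lower in value, with a class median of -0.52.

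The 2 calls did not hold in every alternative. With any single array left out the log2 difference of rpoC1 ran from -0.87 to -0.75 and that of rpoC2 from -0.66 to -0.62. The rpoC1 call held without rsa3-1 replicate 1 (adjusted p = 0.030) and was lost without wild type replicate 1 (0.092), wild type replicate 2 (0.062) or rsa3-1 replicate 2 (0.079). The rpoC2 call was lost in each case, with adjusted p from 0.10 to 0.15. With the replicate number as a block both calls were lost as well, at adjusted p = 0.10 for rpoC1 and 0.15 for rpoC2. In a scaling chosen after the data were seen, which sets the median deviation of the plastid genes equal on all arrays, rpoC1 was at -0.66 (adjusted p = 0.0025) and rpoC2 at -0.49 (0.068). On that scale psbK and psbI, described below, were higher by 0.58 and 0.53 (adjusted p = 0.014 and 0.032). That scaling moves most of the array upward, with 15.6% of all probe sets lower in value in rsa3-1.

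**Figure D3:**
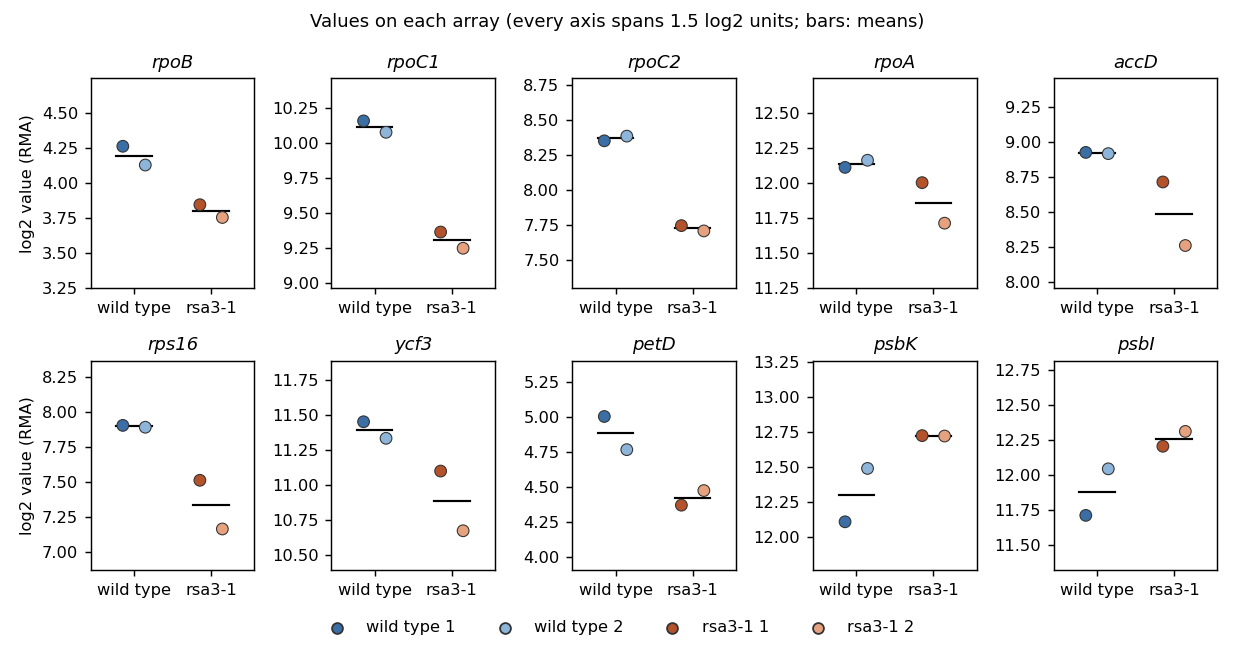
Log2 values (y axis, each spanning 1.5 units) of 10 plastid-encoded genes on the 2 wild type and 2 rsa3-1 arrays (x axis); points are arrays and bars are genotype means. For rpoB, rpoC1 and rpoC2 the arrays of a genotype lie close together and the genotypes apart, while for accD, rps16 and ycf3 the rsa3-1 arrays are spread.

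The other genes with general functions in the plastid were also lower in value, 5 of 5, but did not pass. accD encodes a subunit of the plastid acetyl-CoA carboxylase, which starts fatty acid synthesis. Its values were 8.92 and 8.91 in wild type against 8.71 and 8.26 in rsa3-1, a difference of -0.43 (standard error 0.15, limma adjusted p = 0.40). Both mutant values were below wild type, and rsa3-1 replicate 2 was lower by a larger margin. clpP, for a proteolytic subunit of the Clp protease, was at 13.12 and 13.21 in wild type against 13.09 and 12.84 in rsa3-1, a difference of -0.20. The envelope protein gene cemA differed by -0.23, the intron maturase gene matK by -0.10 and ccsA, needed to attach haem to c-type cytochromes, by -0.08.

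Genes for the small subunit of the plastid ribosome had a median difference of -0.17, with 7 of 8 lower in value and 0 called. rps16 had the smallest p among them. It was at 7.90 and 7.89 in wild type and at 7.51 and 7.16 in rsa3-1, and its difference of -0.56 (standard error 0.13) did not pass (limma adjusted p = 0.16). The genotypes did not overlap, though the distance between the rsa3-1 arrays was much greater than that between the wild type arrays. rps4 was at 12.98 and 12.96 in wild type against 12.90 and 12.75 in rsa3-1, a difference of -0.15. Next in value were rps2 at -0.42, rps15 at -0.40 and rps14 at -0.20, while rps19, rps3 and rps18 were at -0.04, -0.03 and 0.06. rps15 illustrates the spread within rsa3-1, with 7.64 and 6.99 on its replicates.

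The large subunit had a median of -0.28, with 6 of 7 lower in value and 0 called. rpl20 was at 8.73 and 8.92 in wild type against 8.54 and 8.22 in rsa3-1, with a difference of -0.44 (standard error 0.14, limma adjusted p = 0.32). Its genotypes were apart, by less than the distance between the arrays of either. rpl36 differed by -0.55, with 10.99 and 10.29 on the rsa3-1 arrays. Among all 69 genes this was the widest gap between the rsa3-1 arrays. rpl14 was at -0.34, rpl16 at -0.28, rpl22 at -0.15 and rpl33 at -0.11, and rpl32 at 0.27. rpl22 was at 11.57 and 11.73 in wild type and at 11.71 and 11.30 in rsa3-1, so its groups overlapped. For rpl14, rpl16 and rpl22 likewise rsa3-1 replicate 1 lay within the wild type range and rsa3-1 replicate 2 below it.

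In photosystem I, which passes electrons to ferredoxin, 6 of 7 genes were lower in value with a median of -0.22, and 0 were called. ycf3, an assembly factor of the complex, was at 11.45 and 11.33 in wild type against 11.10 and 10.67 in rsa3-1. The mutant arrays were both below, by unequal amounts, and the difference of -0.51 did not pass (standard error 0.15, limma adjusted p = 0.30). The other assembly factor, ycf4, was at -0.36. Among subunits, psaC, which holds the terminal iron-sulphur centres, was at 6.78 and 6.40 in wild type against 6.20 and 6.13 in rsa3-1, a difference of -0.43 (adjusted p = 0.35). Wild type replicate 2 was nearer to the mutant arrays than to wild type replicate 1. psaB, a reaction centre core protein, was at 13.65 and 13.65 against 13.59 and 13.54, a difference of -0.08. Its partner psaA was at -0.22, and the small subunits psaI and psaJ were at -0.08 and 0.15.

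Photosystem II, the water-splitting complex, was divided, with 9 of 15 genes lower in value, 6 higher, a median of -0.03 and 0 called. The lower values were led by genes of large core proteins. psbD, for the D2 reaction centre protein, was at -0.38, psbC for the antenna protein CP43 at -0.29, psbA for the D1 protein at -0.25 and psbB for the antenna protein CP47 at -0.21. The higher values belonged to small subunits. psbK was at 12.11 and 12.49 in wild type and at 12.72 and 12.72 in rsa3-1, a difference of 0.42 (standard error 0.14, limma adjusted p = 0.35). Both mutant arrays were above wild type, and the wild type arrays differed from each other almost as much as the genotypes did. Its neighbour psbI was at 11.71 and 12.05 in wild type and at 12.21 and 12.31 in rsa3-1, a difference of 0.38 (adjusted p = 0.39). psbM was at 13.25 and 13.66 in wild type against 13.69 and 13.65 in rsa3-1, so its difference of 0.21 came with overlapping groups. psbJ, psbZ and psbL were at 0.10, 0.10 and 0.04.

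The other small photosystem II genes lay near 0, psbE and psbF of cytochrome b559 at -0.01 and -0.03, psbT at -0.06 and psbH at -0.08, with psbN, an assembly factor, at -0.14. Wild type replicate 1 had the lowest value for 14 of the 69 genes, among them psbK, psbI, psbM, psbZ, psbJ, psbL, psaJ and rpl32. Wild type replicate 1 is also the array with the highest spike-in controls, and the part of that array in the values of psbK and psbI was not tested. Without wild type replicate 1, psbK was at 0.23 and psbI at 0.21, and without wild type replicate 2 they were at 0.61 and 0.55.

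The cytochrome b6f complex, which links the photosystems, had 6 of 6 genes lower in value, with a median of -0.11 and 0 called. petD, for subunit IV, was at 5.002 and 4.76 in wild type against 4.37 and 4.47 in rsa3-1, a difference of -0.46 (standard error 0.12, limma adjusted p = 0.20). The genotypes did not overlap, but these values are near the lower quartile of the arrays and may be partly background. petB, for cytochrome b6, was at 13.04 and 13.04 in wild type and at 12.91 and 12.91 in rsa3-1. Its replicates nearly coincided, and its difference was -0.13, with a 95% interval from -0.36 to 0.09. petG was at -0.23, petN at -0.08, petA for cytochrome f at -0.07 and petL at -0.03.

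Of the 6 ATP synthase genes, 5 were lower in value with a median of -0.12, and 0 were called. atpH, for the ring subunit c, was at 10.36 and 10.37 in wild type against 10.10 and 9.87 in rsa3-1, a difference of -0.38 (standard error 0.11, limma adjusted p = 0.31). The mutant arrays were both below the nearly equal wild type arrays. atpF, for subunit b of the stalk, was at -0.33 and atpA, for the α subunit, at -0.16. atpE, for the ε subunit, was at 14.15 and 14.15 in wild type against 14.02 and 14.14 in rsa3-1, a difference of -0.07, and atpB for the β subunit differed by -0.01. atpI, for subunit a, was at 0.22, but its wild type values were 7.14 and 7.81, and the rsa3-1 values of 7.78 and 7.62 lay between them.

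The NDH complex, which returns electrons from ferredoxin to the plastoquinone pool, showed 6 of 10 genes lower in value and a median of -0.03, with 0 called. ndhD was at 9.53 and 9.58 in wild type against 9.28 and 9.30 in rsa3-1, a difference of -0.26 with close replicates (standard error 0.10, limma adjusted p = 0.42). ndhI was at 13.39 and 13.43 in wild type and at 13.53 and 13.37 in rsa3-1, so the groups overlapped around a difference of 0.04. ndhH was at -0.39, ndhG at -0.20, ndhK at -0.08 and ndhJ at -0.02. ndhE, ndhA and ndhC were at 0.01, 0.11 and 0.11, and ndhF, at -0.05, had values of 3.81 to 3.91 that may be background. rbcL, for the large subunit of Rubisco, the carbon-fixing enzyme, was at 11.77 and 11.83 in wild type against 11.75 and 11.59 in rsa3-1. Its difference was -0.13, with a 95% interval from -0.37 to 0.12 (adjusted p = 0.78).

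Along the genome, neighbours that are known to be transcribed together had similar differences in some units and not in others. The rpoB, rpoC1 and rpoC2 genes were all lower in value with no overlap of genotypes, from -0.81 to -0.40. psbK and psbI, also neighbours, differed from each other by only 0.04. In the psbE-psbF-psbL-psbJ unit the differences ran from -0.03 to 0.10 and in psaA-psaB-rps14 from -0.22 to -0.08. In the unit that runs from rps2 through atpI, atpH and atpF to atpA, the range was wide, from -0.42 for rps2 to 0.22 for atpI. That unit lies beside rpoC2, the last gene of the polymerase unit, whose neighbour rps2 was at 9.83 and 9.95 in wild type against 9.72 and 9.23 in rsa3-1. The 7 measured genes from rps19 to rpoA were all lower in value, from -0.55 to -0.03. In psbB-psbT-psbH-petB-petD all 5 were lower in value, from -0.46 to -0.06, and in the NDH unit with psaC, 4 of 7 were. Members of a unit share RNA, so they are not independent measurements.

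**Figure D4:**
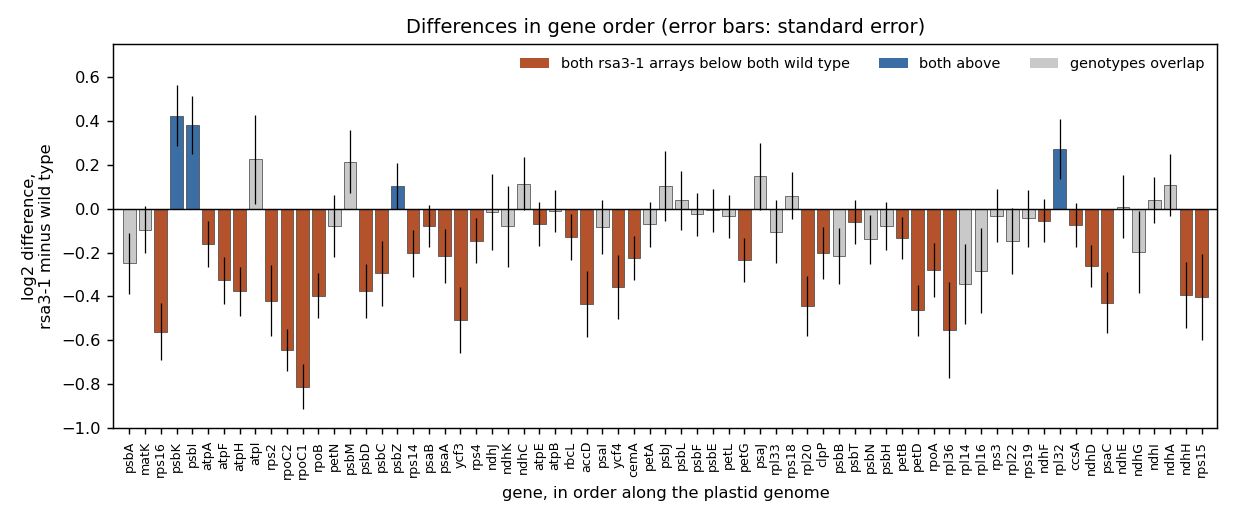
Log2 difference between rsa3-1 and wild type (y axis, with standard errors) for the 69 plastid-encoded genes in their order along the plastid genome (x axis); colours mark genes whose rsa3-1 values all lie below or all above the wild type values. The lowest run is rpoC2, rpoC1 and rpoB, and psbK and psbI are the tallest bars above 0.

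Across the 69 genes the difference went with the level and with gene length. Pearson's r between the mean log2 value and the log2 difference was 0.40 (Spearman's rho 0.45), and with the logarithm of gene length in RefSeq, introns included, it was -0.46 (rho -0.42). The median difference was -0.07 for the 16 genes with a mean over 12 and -0.10 for the 23 between 10 and 12. It was -0.26 for the 17 between 8 and 10 and -0.23 for the 9 between 6 and 8. For the 4 dim genes under 6 it was -0.30. These are descriptions, since the points share 4 arrays and, within units, the same transcripts.

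Genes taken as those of the inverted repeat, whose probe sets are annotated to more than 1 gene copy, had 0 calls among 8 probe sets. Whether each probe set, those of rps12 included, matches both copies was not checked. ycf1, whose product has been described as a part of the protein import machinery of the inner envelope, was at 10.71 and 10.87 in wild type against 10.44 and 10.19 in rsa3-1, a difference of -0.48 (limma adjusted p = 0.21). Its genotypes did not overlap. ycf2 was at -0.29 and ndhB at -0.26, with ndhB at 4.41 to 4.93 and possibly background. The 2 probe sets of rps12 were at -0.36 and -0.20, rps7 at -0.11, rpl2 at -0.01 and rpl23 at 0.18.

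Nuclear genes for plastid proteins were listed in 10 groups, from subunits of the same complexes to ribosomal proteins and chlorophyll synthesis. Of the 149 entries 25 were measured, of which 0 were called or had an unadjusted p under 0.05 (limma). Nuclear subunits of the photosystems, the cytochrome b6f complex, the ATP synthase and the NDH complex were measured for 8 genes. These are 6 of 37 listed photosynthesis genes and 2 of 10 listed for the NDH complex. All 8 were higher in value, by 0.04 to 0.23, where 52.9% of all probe sets were lower in value. NdhN was at 9.10 and 9.18 in wild type against 9.45 and 9.29 in rsa3-1, a difference of 0.23 (limma adjusted p = 0.56), and AT2G26500, listed for the cytochrome b6f complex, was at 0.18. PSAN and PSAE-1 of photosystem I were at 0.16 and 0.04, and PSBW and PSBY of photosystem II at 0.11 and 0.07. ATPC1, for the γ subunit of the ATP synthase, was at 0.05 and NdhL at 0.09. Whether the plastid and nuclear subunits differ from each other was not tested.

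**Figure D5:**
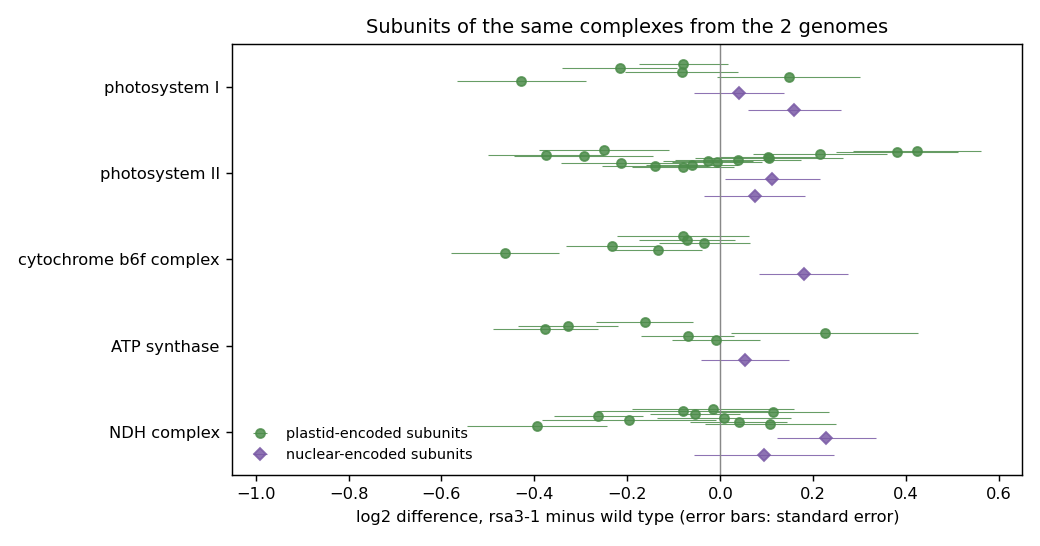
Log2 difference between rsa3-1 and wild type (x axis, with standard errors) for plastid-encoded (circles) and nuclear-encoded (diamonds) subunits of 5 photosynthetic complexes (y axis). The 8 measured nuclear subunits lie between 0.04 and 0.23, whereas the plastid-encoded subunits lie on both sides of 0.

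Among light-harvesting proteins LHCB4.1 and LHCB4.2 were at 0.01 and -0.08, the extremes of the 3 measured of 20. Of 33 listed nuclear genes for plastid ribosomal proteins 9 were measured, with a median of -0.04, and AT2G43030 and AT5G65220, the members with the smallest p, were at -0.11 and -0.09. Of 15 chlorophyll synthesis genes 4 were measured, with a median of -0.12, and CHLI2 of magnesium chelatase was at -0.13, GSA1 at -0.13, PORB at -0.11 and CHLM at 0.09. AT5G15700, the measured gene of 3 for phage-type organellar RNA polymerases, was at 4.59 and 4.53 in wild type against 4.70 and 4.36 in rsa3-1. Its difference of -0.03 rests on values that may be background. The listed sigma factors, polymerase-associated proteins, plastid ribonucleases and RNA-binding proteins, and GLK1, GLK2 and HY5 were not analysed here, since no probe set could be matched to them.

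The other organelle genome gave 11 measured mitochondrion-encoded genes, of which 0 were called and 1, nad2 at 0.26, had an unadjusted p under 0.05. Their median difference was -0.14, close in value to the plastid median, with 7 of 11 lower in value and 9 with overlapping genotypes. nad4L was at -0.21 and nad7 at 0.26. cox1, which held the highest value of these genes, was at 8.79 and 8.42 in wild type against 8.45 and 8.22 in rsa3-1, a difference of -0.27. In several of these genes wild type replicate 1 was the highest array, unlike in most plastid genes. Only cox1 and nad4 had values above 6, and values ran down to 3.55, so many may be background, those of nad2, nad4L and nad7 among them. The median difference thus rests mostly on dim genes.

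Markers of cell types gave the following values beside the plastid genes. Over the 9 measured of 57 photosynthetic shoot genes the median difference was 0.05, with 0 called and none of them at or near the array minimum. Of 4 root hair markers 2 were measured, EXPA18 at -0.37 and EXPA7 at -0.28, and PYK10, the measured root marker of 3, was at -0.11. The guard cell markers FMA and AT1G22690 were at -0.09 and -0.10. Among 9 seed and embryo markers only the oleosin gene AT3G01570 was measured. It stood at 9.26 and 8.97 in wild type against 7.49 and 6.53 in rsa3-1 and fell by 2.11 in log2 units (limma adjusted p = 0.016). For this gene and PYK10, rsa3-1 replicate 2 was the lowest array, as for most plastid genes. EXPA18 and EXPA7 were lowest in rsa3-1 replicate 1, and FMA and AT1G22690 in wild type replicate 2. The part of cell composition or seedling stage in the plastid differences was not tested.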

How the data were processed

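The 4 arrays hold total RNA of whole seedlings, 2 per genotype. The deposited values are log2 values that the authors made with RMA (background correction, normalization between arrays, one summary for each probe set); the submitters' processing notes name RMA. Which program ran it is not given in the sources used here. No further normalization was applied, except in the alternatives named below. No scanner files or detection calls were used, and RMA compresses differences among dim probe sets. With arrays, precision is limited by their number.

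Of 22810 probe sets, 64 controls were set aside. The platform annotation names 1 gene for 13513 and several for 503 of the rest and does not list 8730. Plastid genes were matched by gene identifier to RefSeq (TAIR10.1), all with 1 probe set. Mitochondrial genes were matched by symbol, since their identifiers differ from RefSeq's. Coordinates are left out, as the probe annotation names no build, and no sequences were at hand.

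All probe sets were fitted with limma 3.58.1 (lmFit, eBayes, two-sided) in R 4.3.3, rsa3-1 minus wild type, with Benjamini-Hochberg adjustment over 22746 and a threshold of 0.05. The fit was tested on simulated data with independent noise and with added differences larger than those of the plastid genes. That simulation held no shift shared by the genes of an array, so it does not cover such shifts. Figures used matplotlib 3.10.9, pandas 2.3.3 and Python 3.11.15. All 69 genes were kept without a filter on low values. Values per array are given for called genes, for the gene of highest mean and of smallest p in each class, and for the 10 of smallest p, with a few more chosen after their values were seen, namely rps15, rpl36, psbI, atpI and rps2. Transcription units were taken from general knowledge. Genes, lists and classes were chosen with earlier results of these data known. Alternatives covered scaling, filters, the variance model, array weights, the replicate block and leaving out each array. Same-numbered arrays were not treated as pairs.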

Additional observations from a re-analysis of the deposited data

How the results depend on the processing

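The 2 calls, rpoC1 and rpoC2, remained under quantile normalization, equal array medians, a minimum mean log2 value of 5 or 6 (which leave 65 of the 69 genes), trended and robust variance, array weights and with the inverted repeat genes included. Under these the median difference ran from -0.14 to -0.12. With 1 array left out there were 0 to 1 plastid calls and 102 to 222 calls over all probe sets (the remaining array of that genotype borrows its spread from the other), and medians from -0.22 to -0.07. With the replicate block, 0 plastid genes and 42 probe sets (32 higher, 10 lower) were called, against 2 and 256 (150 higher, 106 lower), with rpoC1 at an adjusted p of 0.10 and rpoC2 at 0.15; the block takes a residual degree of freedom. Deviations of same-numbered arrays correlated at 0.013 over all probe sets. With 1 replicate difference per genotype, this cannot show whether same-numbered samples were handled together. The scaling on plastid genes, chosen after seeing the data, called 3 of them, 1 lower (rpoC1) and 2 higher (psbK and psbI). On that scale 31 of 69 were lower in value, a count that its construction pulls to the middle. Only 15.6% of all probe sets were then lower in value, and the number called over all probe sets is not given here. Of the 69 genes, 43 kept the sign of their difference in every alternative but that scaling and 26 did not; with it included, 34 kept their sign. A mean over the probe sets of a gene was not run, since each gene has 1. Dim values of rpoB, petD, rps14 and ndhF limit what their differences show.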
